A study of Mus musculus with 6 samples.

Results

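Here 10 genes known for their rising expression as astrocytes mature were followed in whole brains of mouse embryos with and without DNA topoisomerase IIβ, which relieves DNA tangles by cutting and resealing both strands. They were Aqp4, Apoe, Mt1, Mt3, Clu, Sparcl1, Aldoc, Gja1, Ndrg2 and Glul, and every probe set that the platform annotation assigns to one of them was taken, which gave 16 probe sets for 10 genes among the 12422 probe sets of the array that are not controls. After a filter on dim probe sets, 14 of the 16 stayed among the 7453 that were tested. Where a gene had more than 1 probe set they are told apart below by the ending of their names (_at, _s_at, _i_at, _f_at or _r_at), and the 2 that did not pass were the _s_at of Aqp4 and the _i_at of Apoe.

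Embryos of the genotypes Top2b+/+ and top2b-/- were compared on 3 embryonic days (E14.5, E16.5, E18.5), all on a 129SvEv background with a minor contribution of 129SvJ. Each of the 6 combinations of genotype and age was measured on 1 Affymetrix MG_U74Av2 array, hybridised with biotin-labelled cRNA from total RNA of whole brain. Per the labels, the top2b-/- array of E16.5 came from a female and the other 5 arrays from males, so that for this array sex and genotype cannot be told apart at its age. The sources used here do not say how many brains went into an array, nor which part of the gene the mutant allele lacks. With 1 array per group, the genotypes were the only replication of an age effect and the ages the only replication of a genotype effect, so the p-values speak only of the spread between these arrays.

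Astrocytes arise late in brain development, when radial glia, the stem cells that first make neurons, turn to making glia. As they mature they acquire water channels at their endfeet around blood vessels, gap junctions that couple them to one another, carriers that export lipid, and enzymes that take up and recycle glutamate. Most of the genes followed here are also active in radial glia or in other cells of the head, so their signal in whole brain is not that of astrocytes alone. In such bulk RNA, fewer cells of a type and less RNA per cell cannot be told apart.

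The deposited intensities had medians of 55.5 on the Top2b+/+ array of E16.5 and of 78.0 to 83.2 on the other 5, and each array was scaled to a common median with factors from 0.919 to 1.38. Values below are scaled intensities unless the deposited ones are named, and a reading is called within the noise when it lies below the size of its array's 5th percentile, 26.9 to 40.7 after scaling. Top2b itself read 281 to 538 in Top2b+/+ and 34.4 to 48.1 in top2b-/- brains, and Xist and Eif2s3y followed the labelled sexes. As a check of the label, the defining astrocyte genes Gfap, Slc1a2 and S100b were dim: they lay within the noise on 4, 3 and 5 of the 6 arrays and did not pass the filter.

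Between E14.5 and E18.5 the signal of 4 of the 14 tested probe sets rose, against 0.59% of all tested probe sets, and 0 fell, against 0.899% (limma, Benjamini-Hochberg adjusted p under 0.05). The 4 were those of Aqp4, Apoe and Mt1 and 1 of the 2 for Clu. At an unadjusted p under 0.05, 11 of the 14 were higher at E18.5, against 9.24% of all tested, and 1 was lower, a probe set of Glul, against 10.9%. Counted by direction alone, 13 of the 14 were higher, against 44.8% of all tested, and their median log2 change was 0.94, beside -0.05 over all 7453. The 4 calls ended when any 1 of the E16.5 or E18.5 arrays was left out, which left 0 of 14, and without either E14.5 array Mt1 alone was called. Over all tested probe sets the age test called 44 higher and 67 lower, and this split was 199 and 155 without scaling and 153 and 113 with quantile normalization. On these arrays 4 of 14 tested neuronal markers also rose past the threshold (limma, adjusted p under 0.05), and 12 of those 14 were higher by direction. A rise at this rate was thus not particular to the astrocyte genes.

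**Figure D1:**
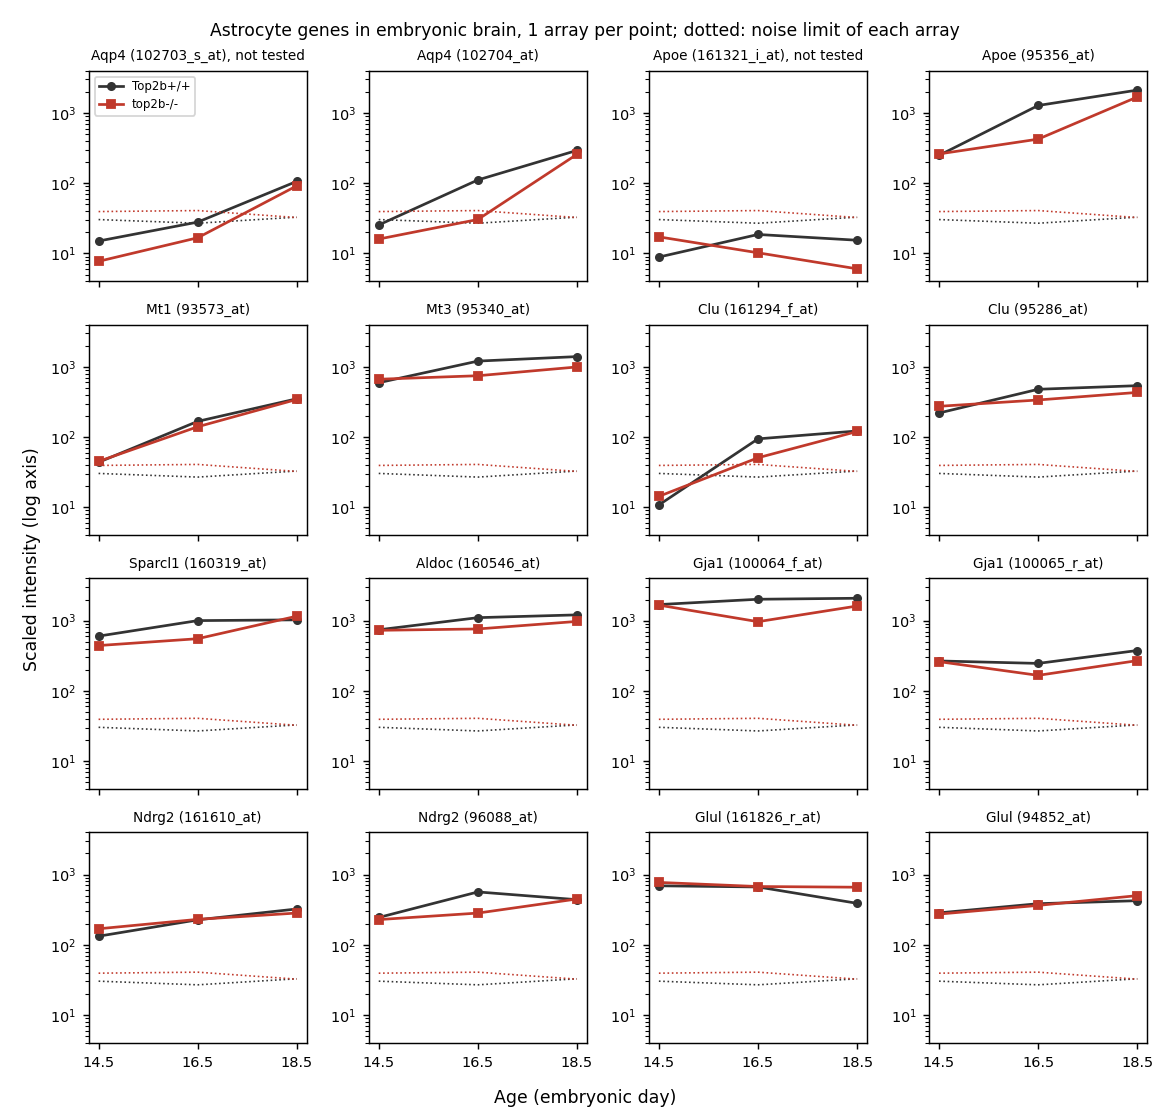
Scaled intensity (log axis) of the 16 probe sets against embryonic day, 1 array per point, with Top2b+/+ as dark circles and top2b-/- as red squares, and the noise limit of each array as dotted lines. The Aqp4 and Apoe curves of the 2 genotypes part at E16.5, where the Apoe _at probe set read 1276 and 424, and lie close again at E18.5, while those of Mt1 stay together throughout.

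Aqp4, the water channel of astrocyte endfeet, read 25.4, 111 and 293 in Top2b+/+ brains from the youngest to the oldest age, and 16.0, 30.4 and 258 in top2b-/- brains, on its _at probe set. Both E14.5 readings and the E16.5 reading of the top2b-/- brain lay within the noise, so the transcript stood above it from E16.5 in one genotype and only at E18.5 in the other. It was at least 7.95-fold higher at E18.5 than at E14.5 (log2 change 3.77 ± 0.45 SE, limma, adjusted p = 0.0333). The _s_at probe set read 15.0, 27.9 and 106 against 7.71, 16.7 and 91.7, and was well above the noise only at E18.5. On both probe sets E18.5 was the highest age in each genotype. The first step in top2b-/- brains cannot be read on either, since both readings were within the noise and stood 1.03-fold apart when raised to its limit.

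At E16.5 the Aqp4 signal was at least 2.73-fold lower in the top2b-/- brain after scaling. The deposited intensities were 80.6 and 32.3, and with the second raised to the noise limit they give a bound of 1.86-fold. By E18.5 the readings of the genotypes were 1.14-fold apart. The steps between ages differed accordingly after scaling. The signal increased at least 3.66-fold from E14.5 to E16.5 in Top2b+/+ brains and 2.64-fold from E16.5 to E18.5. In top2b-/- brains it increased at least 6.33-fold in the second step, and the 2 readings of the first lay within the noise. As deposited, Top2b+/+ brains read 27.6, 80.6 and 299.

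Gja1, which encodes connexin 43, the main gap junction protein of astrocytes, was already at its level at E14.5. Its _f_at probe set read 1695, 2018 and 2085 in Top2b+/+ and 1664, 967 and 1617 in top2b-/- brains, and the lowest of the 6 readings was that of the E16.5 top2b-/- array. The _r_at probe set read 267, 246 and 376 against 261, 166 and 269.8, again with its lowest reading there. Neither changed with age past the threshold, with log2 changes of 0.13 ± 0.25 (limma, adjusted p = 0.817) and 0.27 ± 0.19 (limma, adjusted p = 0.476). At E16.5 the first was 2.09-fold and the second 1.48-fold lower in the top2b-/- brain after scaling. As deposited, the _f_at read 1463 in Top2b+/+ and 1027 in top2b-/- brains at this age, and the _r_at 179 and 177. The gene thus showed no late onset, and the E16.5 gap of its _r_at was not seen without scaling.

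Apoe, the lipid carrier that astrocytes secrete, had the widest gap at E16.5 among members above the noise on all arrays. Its _at probe set read 249, 1276 and 2113 in Top2b+/+ brains and 261, 424 and 1686 in top2b-/- brains. The E14.5 readings of the genotypes were close, and both genotypes had their highest reading at E18.5. The transcript was 7.41-fold higher at E18.5 than at E14.5 (log2 change 2.89 ± 0.39 SE, limma, adjusted p = 0.0365). In Top2b+/+ brains most of the increase came in the first step, 5.13-fold against 1.66-fold in the second. The order was the opposite in top2b-/- brains, with 1.62-fold and then 3.98-fold. At E16.5 the top2b-/- reading was 3.01-fold lower, and the deposited intensities were 926 and 449.7. The _i_at probe set of Apoe lay within the noise on all 6 arrays, at 6.03 to 18.6, and gives no level of the gene.

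Clu encodes clusterin, a secreted chaperone that also travels on lipoprotein particles. Its _f_at probe set read 10.8, 94.2 and 122 in Top2b+/+ and 14.3, 50.7 and 119.9 in top2b-/- brains, and both E14.5 readings lay within the noise. The signal rose at least 3.50-fold from E14.5 to E18.5 (log2 change 3.28 ± 0.43 SE, limma, adjusted p = 0.0345), and the call ended when low readings were raised to the noise limit (log2 change 1.81, limma, adjusted p = 0.0651). The brighter _at probe set read 219.8, 478 and 538 against 274, 337 and 432, with a log2 change of 0.97 ± 0.22 that did not pass the threshold (limma, adjusted p = 0.0987). The pair correlated at 0.96 over the arrays and differed in size of change, the first spanning readings from below the noise. At E16.5 they were 1.86-fold and 1.42-fold lower in the top2b-/- brain.

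Sparcl1, a secreted matrix protein of the SPARC family that promotes synapse formation, read 602, 1002 and 1027 in Top2b+/+ and 442, 554 and 1159 in top2b-/- brains. After scaling it was near its E18.5 reading by E16.5 in the first genotype and increased 2.09-fold after E16.5 in the second. As deposited, Top2b+/+ brains read 656, 726 and 1048, with most of the increase after E16.5 in this genotype too. The log2 change with age was 1.08 ± 0.25 (limma, adjusted p = 0.0987). The E16.5 difference was 1.81-fold after scaling, a log2 difference of -0.86 that was -0.31 as deposited. At E18.5 the top2b-/- reading was the higher one.

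The metallothioneins are small cysteine-rich proteins that bind zinc and copper. Mt1 read 43.7, 167 and 350.5 in Top2b+/+ and 45.0, 140.1 and 343 in top2b-/- brains, so that at each age the readings of the genotypes lay near each other. It rose 7.82-fold from E14.5 to E18.5 (log2 change 2.97 ± 0.20 SE, limma, adjusted p = 0.0195), 3.82-fold then 2.10-fold in Top2b+/+ and 3.12-fold then 2.45-fold in top2b-/- brains. Its E16.5 reading was 1.19-fold lower in the top2b-/- brain after scaling, and the deposited intensities ran the other way, 121 in Top2b+/+ and 149 in top2b-/-. Mt3, the form enriched in the nervous system, read 593, 1205 and 1397 against 665, 746 and 994, with a log2 change with age of 0.91 ± 0.22 (limma, adjusted p = 0.104). In contrast to Mt1, Mt3 was 1.62-fold lower at E16.5 and 1.40-fold lower at E18.5 in top2b-/- brains. Their neighbour Mt2, which is not one of the 10 genes, read 500.3, 484 and 739 against 477, 544 and 848, with a log2 change of 0.70 ± 0.13 (limma, adjusted p = 0.0723), and was not lower at E16.5 in the top2b-/- brain.

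Metallothionein genes are induced by zinc through metal response elements and by glucocorticoids, and the start regions of Mt1 and Mt2 are shown because these neighbours differed in their change with age. Both lie on the plus strand of chromosome 8 in RefSeq's GRCm38.p6, at chr8:94178839-94179118 for Mt1 and chr8:94172368-94172647 for Mt2, each running from 250 bases before the annotated start to 30 after it. Capitals mark the core of the metal response element, searched as TGCACNC or TGCGCNC on both strands, spellings that cannot match at the same position.
Mt1: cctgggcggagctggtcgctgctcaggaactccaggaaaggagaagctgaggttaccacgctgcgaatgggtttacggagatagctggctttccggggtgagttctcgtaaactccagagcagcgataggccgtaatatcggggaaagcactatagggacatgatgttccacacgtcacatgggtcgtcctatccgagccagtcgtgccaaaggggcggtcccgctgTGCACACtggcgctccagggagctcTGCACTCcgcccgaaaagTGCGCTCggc
Mt2: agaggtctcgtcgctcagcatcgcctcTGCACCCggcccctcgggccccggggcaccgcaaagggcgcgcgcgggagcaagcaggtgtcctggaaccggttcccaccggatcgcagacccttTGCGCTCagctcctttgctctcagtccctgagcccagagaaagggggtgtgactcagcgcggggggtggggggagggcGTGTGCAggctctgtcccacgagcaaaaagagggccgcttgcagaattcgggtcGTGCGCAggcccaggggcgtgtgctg

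Within 300 bases of sequence, 250 before and 50 after the start, Mt1 held 3 such cores and Mt2 held 4, against 25.7% of 32851 RefSeq promoters of that length with at least 1, 1.97% with 3 or more and 0.517% with 4 or more. Mt3 and Glul held 1 core each, and the RefSeq entries of Apoe, Aldoc, Gja1 and Ndrg2 held none in this window. Promoter entries were found for 7 of the 10 genes. These matches describe the letters only.

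Of the enzymes, Aldoc encodes the brain form of the glycolytic enzyme aldolase. It read 742, 1104 and 1209 in Top2b+/+ and 729, 762 and 976 in top2b-/- brains, with a log2 change with age of 0.56 ± 0.16 (limma, adjusted p = 0.131) and an E16.5 reading 1.45-fold lower in the top2b-/- brain. Glul encodes glutamine synthetase, which turns glutamate into glutamine in astrocytes. Its 2 probe sets did not give the same picture. The _at probe set read 285, 384 and 424 against 273, 364 and 501, a log2 change of 0.72 ± 0.15 (limma, adjusted p = 0.0842). The _r_at probe set read 691, 665 and 389 against 772, 675 and 660.0, a log2 change of -0.53 ± 0.20 (limma, adjusted p = 0.236). The pair correlated at -0.49 over the 6 arrays, so no direction with age is given for Glul. At E16.5 the readings of the genotypes were close on both after scaling. At E18.5 the _r_at was 1.70-fold higher in the top2b-/- brain, the widest gap among the 14 tested probe sets at that age, and the _at was 1.18-fold higher.

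Ndrg2, a member of the N-myc downstream regulated family that is abundant in astrocytes, was split in another way. Its 2 probe sets share the ending _at. The dimmer of them read 132, 227 and 324 in Top2b+/+ and 169, 230.1 and 283 in top2b-/- brains, and at E16.5 the genotypes did not stand apart. The brighter read 245, 565 and 439 against 228, 283 and 449, with the E16.5 reading 2.0-fold lower in the top2b-/- brain. Their log2 changes with age were 1.02 ± 0.19 (limma, adjusted p = 0.0698) and 0.91 ± 0.27 (limma, adjusted p = 0.148). The probe sets of Ndrg2 moved alike with age and unlike at E16.5.

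**Figure D2:**
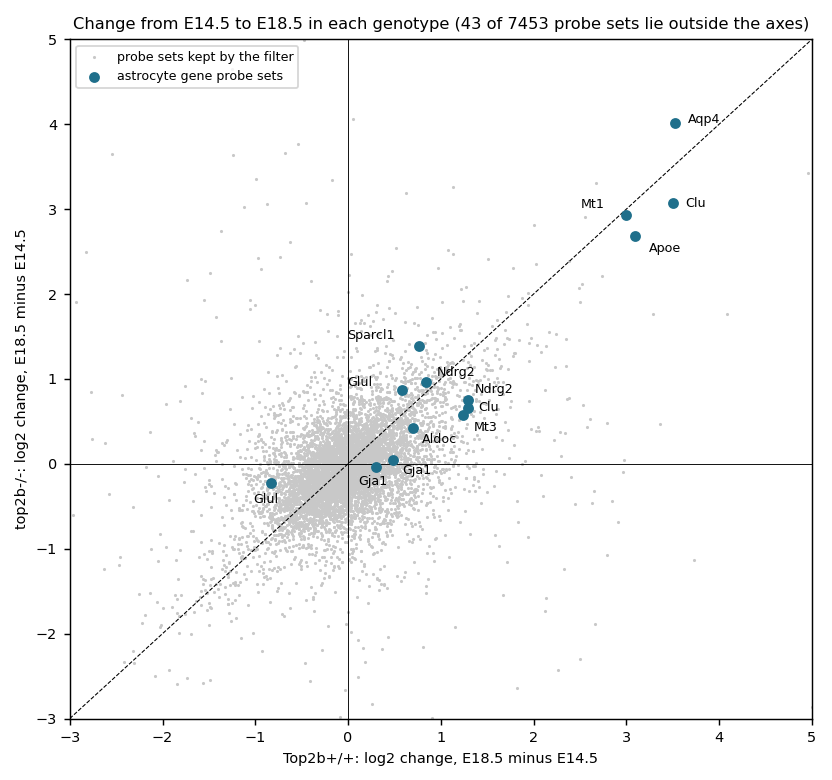
Log2 change from E14.5 to E18.5 in Top2b+/+ brains (horizontal axis) and top2b-/- brains (vertical axis), with each tested probe set as a grey point, the 14 tested probe sets of the astrocyte genes in blue, and equal change as the dashed line. Aqp4, Clu, Mt1 and Apoe lie near the line in the upper right, and 43 of the 7453 probe sets fall outside the axes.

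The timing of the increase was then set out step by step. In Top2b+/+ brains, 7 of the 14 probe sets were at least 2-fold higher at E16.5 than at E14.5, against 4.8% of all tested, and 2 of 14 were so at E18.5 over E16.5, against 2.04%. In top2b-/- brains the numbers were 2 of 14 in the first step, against 1.93%, 1 of them the _f_at of Clu, which was only 1.29-fold higher once its E14.5 reading was raised to the noise limit, and 5 of 14 in the second, against 2.82%. Over the whole interval, 7 were at least 2-fold higher in Top2b+/+ brains, against 4.86%, and 5 in top2b-/- brains, against 4.23%. These counts compare single arrays after scaling, which raised the E16.5 Top2b+/+ array by a factor of 1.38, and have no replicate check. Fitted over both genotypes, 0 of 14 passed in either step (limma, adjusted p), against 0.0% of all tested called higher in each, and 0.0134% and 0.0% called lower. At an unadjusted p under 0.05, 9 were higher in the first step, against 8.39%, and 4 in the second, against 1.57%.

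After scaling, a slower first step in top2b-/- brains was also seen over a wider set, which included 4 member probe sets. Among the 115 tested probe sets at least 2-fold up from E14.5 to E18.5 in both genotypes, a median of 85.3% of the log2 increase had been reached by E16.5 in Top2b+/+ and 58.5% in top2b-/- brains, and the share was lower in top2b-/- brains for 87 of them (75.7%). Among the 71 of these that were above the noise on all arrays, a restriction chosen after seeing the data, the medians were 86.9% and 56.9%, with the share lower for 60 (84.5%). Apoe and Mt1 were 2 of the 71, with shares of 76.4% and 26.0% for Apoe and of 64.4% and 55.9% for Mt1. No share is given for Aqp4 and the _f_at of Clu, which start from readings within the noise. All of these shares rest on the same E16.5 arrays and on scaled values, and were not computed without scaling. As deposited, Mt1 read 47.6, 121 and 358 in Top2b+/+ and 45.9, 149 and 372 in top2b-/- brains. Its E16.5 reading was then the higher one in the top2b-/- brain, so the order of its shares depends on the scaling.

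The genotype comparison asked whether loss of topoisomerase IIβ went with a different level of these genes over the 3 ages. No member passed: 0 of 14 were called in either direction (limma, adjusted p), against 0.0268% of all tested called lower and 0.0134% called higher, and 0 passed at an unadjusted p under 0.05, against 4.35% lower and 2.2% higher. By direction alone 11 of 14 were lower in top2b-/- brains, against 48.7% of all tested, with a median log2 difference of -0.31 beside 0.0079 over all. The fitted difference was -0.91 ± 0.37 for the _at of Aqp4 (limma, adjusted p = 0.749), or -0.42 ± 0.36 with its 3 readings within the noise raised to the limit (limma, adjusted p = 0.819). It was -0.62 ± 0.31 for Apoe (limma, adjusted p = 0.768), and -0.082 ± 0.16 for Mt1 (limma, adjusted p = 0.914). For the genotype difference in log2 change per day, 0 of 14 passed (limma, adjusted p), against 0.0% of all tested called in each direction, and 0 at an unadjusted p under 0.05, against 2.37% lower and 1.88% higher. With so few residual degrees of freedom, differences of the size fitted here would rarely be called, so these counts do not show that the levels were alike.

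Taken age by age, the median difference of the members lay furthest below 0 at E16.5. The genes were chosen with earlier results of these data known, and probe sets of 1 gene are not independent. These counts, like those with age, therefore describe the chosen genes and are no independent test. At E14.5 7 of 14 probe sets were lower in the top2b-/- brain, against 42.0% of all tested, at E16.5 12 of 14 were, against 55.7%, and at E18.5 10 of 14, against 48.0%. The median log2 differences of the 14 were 0.007, -0.63 and -0.19, beside 0.05, -0.063 and 0.013 over all tested probe sets. At E16.5, 4 of 14 were at least 2-fold lower, against 4.56% of all tested, namely those of Aqp4 and Apoe, the _f_at of Gja1 and the brighter of Ndrg2, and 0 were at least 2-fold higher, against 2.91%. At E14.5 0 of 14 were 2-fold apart, against 2.25% lower and 1.95% higher, and at E18.5 again 0, against 2.58% and 1.64%.

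The E16.5 departure, the E16.5 genotype difference minus the mean of those at E14.5 and E18.5, was fitted with its own term. All 14 departures were below 0, against 59.1% of all tested, and 0 passed (limma, adjusted p), against 0.0% of all tested. The direction restates the low E16.5 readings of genes chosen with earlier results known, and is no independent test. Over all 7453 probe sets 577 passed at an unadjusted p under 0.05. Unadjusted, 4 of 14 passed in the lower direction, against 5.73% of all tested. These were Apoe with -1.46 ± 0.26 (limma, adjusted p = 0.622), Aqp4 with -1.44 ± 0.49 (limma, adjusted p = 0.634), the brighter of Ndrg2 with -0.97 ± 0.24 and the _f_at of Gja1 with -0.86 ± 0.21 (limma, adjusted p = 0.622 for both). Mt1, the _at of Glul and the dimmer of Ndrg2 had the smallest departures, -0.26 ± 0.32, -0.17 ± 0.26 and -0.058 ± 0.36. This model leaves 1 residual degree of freedom among the arrays before limma's shrinkage, too few for departures of this size to be called.

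The size of the E16.5 differences depended on how the dim Top2b+/+ array was brought to the level of the others. Without scaling, the median E16.5 difference was 0.49 over all tested probe sets and -0.078 over the 14, and 8 of the 14 stayed lower in the top2b-/- brain, against 13.1% of all tested. Aqp4 at -1.32 and Apoe at -1.04 made 2 of 14 past 2-fold, against 1.85%, but the top2b-/- reading of Aqp4 is within the noise, and its bound of 1.86-fold leaves Apoe alone. The 6 that were not lower as deposited were Mt1, the _at of Clu, Aldoc, the dimmer of Ndrg2 and both probe sets of Glul. With quantile normalization 11 of 14 were lower, against 45.9%, with differences of -1.80 for Aqp4, on that same low reading, and -1.45 for Apoe. The shift of that array was not the same at all levels of signal: unscaled, the median E16.5 difference was 0.64 for probe sets with a mean intensity under 100 and 0.32 for those of 1000 or more, and after scaling these were 0.094 and -0.23. The part of this in the low E16.5 readings of the bright members, such as Gja1, Sparcl1, Mt3 and Aldoc, was not tested apart from the quantile values, which were -0.88 for the _f_at of Gja1, -0.72 for Sparcl1, -0.53 for Mt3 and -0.38 for Aldoc.

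**Figure D3:**
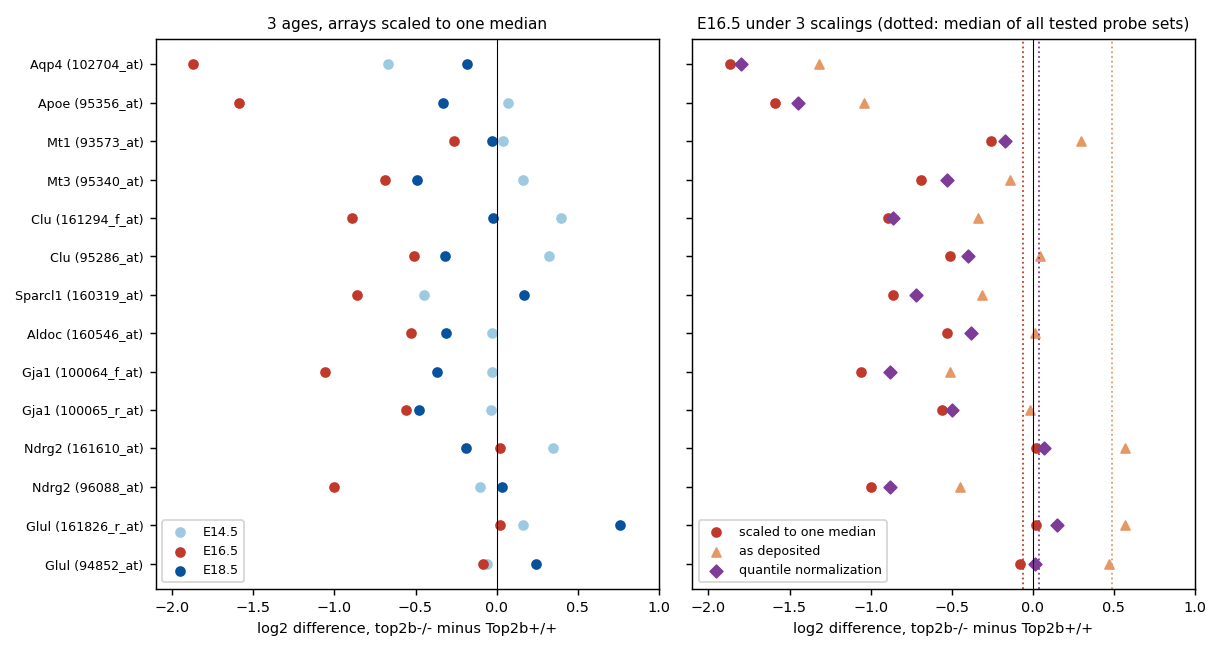
Log2 difference of top2b-/- minus Top2b+/+ for the 14 tested probe sets, at 3 ages after scaling (left) and at E16.5 under 3 scalings (right), 1 pair of arrays per point. The lowest points at E16.5 are those of Aqp4 and Apoe, at -1.87 and -1.59 after scaling to one median. That of Aqp4 rests on a top2b-/- reading within the noise and is -1.45 with this reading raised to the limit, so the order of these 2 cannot be read, and 6 of the 14 points are not below 0 for the values as deposited.

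Other genes of the astrocyte lineage had a smaller median change with age. Of 36 further astrocyte genes 23 were on the array and 14 were tested. With age, 13 of these were higher at E18.5, against 44.8% of all tested, and 1 was lower, with a median log2 change of 0.41. Of the 14, 1 rose past the threshold, against 0.59% of all tested. This was Mfge8, a secreted bridging protein for the uptake of dying cells, which read 889, 1821 and 1766 against 648, 1134 and 1367 (log2 change 1.03 ± 0.13, limma, adjusted p = 0.0345). At E16.5 11 of the 14 were lower in the top2b-/- brain, against 55.7% of all tested. Their median was -0.33 after scaling, 0.22 without it and -0.27 with quantile normalization. Among 19 tested genes of radial glia and early glia 2 rose with age, against 0.59% of all tested. These were Tnc, a matrix glycoprotein (log2 change 1.41 ± 0.20, limma, adjusted p = 0.0451), and Ptprz1, a receptor phosphatase (log2 change 0.96 ± 0.12, limma, adjusted p = 0.0345). In this list 9 of 19 were lower at E16.5, against 55.7% of all tested. Single genes stood far from the middle of the list. Id1 was 3.55-fold lower in the top2b-/- brain, at 688 and 194, and Vim went the other way, at 51.0 and 101. The median of the list was 0.0055 after scaling, 0.56 without it and 0.092 with quantile normalization. The 10 astrocyte genes had medians of -0.77, -0.22 and -0.63 under the same 3 settings, taking the brightest probe set of each. Over all tested probe sets the medians were -0.063, 0.49 and 0.04.

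Relatives of the 10 genes, from the same gene families, showed no call with age in 14 tested (limma, adjusted p over 0.05). Of these 8 were higher, against 44.8% of all tested, and 6 lower. The largest changes were those of Ndrg1, with 118, 308 and 367 against 105, 169.5 and 230.5 (log2 change 1.39 ± 0.22, limma, adjusted p = 0.0516), Ndrg4 (0.87 ± 0.14, limma, adjusted p = 0.0575) and Apod (0.85 ± 0.36, limma, adjusted p = 0.27). At E16.5 this list had a median difference of 0.068, with 7 of 14 lower, against 55.7% of all tested. The connexin gene Gjb2 was 3.15-fold lower in the top2b-/- brain at this age, at 203 and 64.4. Apoc2 went the other way, at 29.0 in Top2b+/+ and 57.7 in top2b-/-. Of 12 tested genes that respond to glucocorticoids or metals 9 were higher at E18.5, against 44.8% of all tested, and 0 passed. The largest changes were those of the transcription factor Zbtb16 (log2 change 1.25 ± 0.28, limma, adjusted p = 0.094) and the cell cycle inhibitor Cdkn1a (0.91 ± 0.16, limma, adjusted p = 0.0642). Of 13 genes of lipid and cholesterol handling, into which Apoe's role falls, 11 were lower in the top2b-/- brain at E16.5, against 55.7% of all tested, and 11 at E18.5, against 48.0%, with medians of -0.34 and -0.43. The E16.5 median turned above 0 without scaling, at 0.21 beside 0.49 over all tested probe sets. In that setting 4 of 13 were lower, against 13.1% of all tested. With quantile normalization the median was -0.15, beside 0.04 over all. At E18.5 the medians were -0.35 and -0.41 under these settings. Fdps, an enzyme of the cholesterol pathway, read 1496, 2649.7 and 2254 in Top2b+/+ against 1662, 1268 and 1312 in top2b-/- brains, and was 1.72-fold lower at E18.5, when Apoe was 1.25-fold lower. Lpl of the same list had a wider gap at E18.5, at 305 in Top2b+/+ and 130 in top2b-/- brains.

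Markers of other cells moved on the same array. Of 14 tested meningeal and mesenchymal markers 13 were lower in the top2b-/- brain at E16.5, against 55.7% of all tested. Their median was -0.84 after scaling, -0.29 without scaling and -0.73 with quantile normalization. At E14.5 and E18.5 their medians were 0.19 and -0.088. Their summed intensity ranged from 6999.5 to 10857 in Top2b+/+ brains and was 7765, 5133 and 8169.8 in top2b-/- brains, so that the E16.5 array had the lowest sum of the 6. The largest differences were those of Ptgds, the prostaglandin D synthase of the leptomeninges, with 177, 1278 and 1873 against 95.4, 77.4 and 550.3, and of Igf2, with 2123, 4043 and 2815 against 2395, 1408 and 2489. Foxc1 and Aldh1a2 of this list lay within the noise on all arrays. Igf2 and Apoe are both made by cells of the meninges as well as of the brain, and the part of this tissue in the low E16.5 readings was not tested.

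The 11 tested microglia and macrophage markers, whose cells also make Apoe, had a median of -0.82 at E16.5 (-0.27 without scaling). Of these 7 were lower, against 55.7% of all tested. The medians at the ages on either side were 0.094 and 0.35. Their sums ranged from 1198 to 1405 in Top2b+/+ brains and were 1328, 1016 and 1611 in top2b-/- brains. C1qc, a complement subunit of microglia, read 187, 325 and 279 against 199.6, 127 and 289. Cx3cr1 and Csf1r of this list went the other way at E16.5, at 150 and 122 in Top2b+/+ against 207 and 154 in top2b-/- brains. Aif1, Fcer1g, Lyz2, Itgam and Ptprc lay within the noise on all arrays. Endothelial and pericyte markers had a median of -0.37 at E16.5 over 13 genes, erythroid markers -0.49 over 8, neuronal markers -0.46 over 14, and markers of muscle and head tissue -0.019 over 6. The 5 choroid plexus and ependymal markers had a median of -0.38. All 5 of these medians were above 0 without scaling, at 0.18, 0.063, 0.089, 0.53 and 0.17 in the same order. The median over all tested probe sets was 0.49 in that setting. The neuronal median was below 0 at the other ages too, at -0.20 for E14.5 and -0.37 for E18.5 after scaling. At these ages 11 and 13 of the 14 neuronal markers were lower in top2b-/- brains, against 42.0% and 48.0% of all tested. At E16.5 13 were lower, against 55.7%, and without scaling 5 were, against 13.1%. With age 4 of the 14 rose past the threshold, against 0.59%, namely Snap25, Eno2, Camk2b and Slc32a1 (limma, adjusted p under 0.05). Of the 8 erythroid markers 2 fell with age, Hbb-y and Hba-x, against 0.899% (limma, adjusted p under 0.05). Ttr, the transthyretin of the choroid plexus, read 548, 1288 and 859 against 938, 603 and 731. Foxj1, of the choroid plexus and ependymal list, was higher in top2b-/- brains at each age, with 47.0, 62.6 and 157 against 185, 170 and 194. Of 8 oligodendrocyte genes on the array Mag, Mog, Cnp and Ugt8a lay within the noise on all arrays, and 3 were tested. Pdgfra, 1 of the 3, read 155, 387.5 and 433 in Top2b+/+ against 134, 115 and 306 in top2b-/- brains, and was 3.36-fold lower at E16.5. The other tested genes, Sox10 and Mbp, had E16.5 log2 differences of -0.22 and 0.0045. The part of these cells in the E16.5 readings was not tested.

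**Figure D4:**
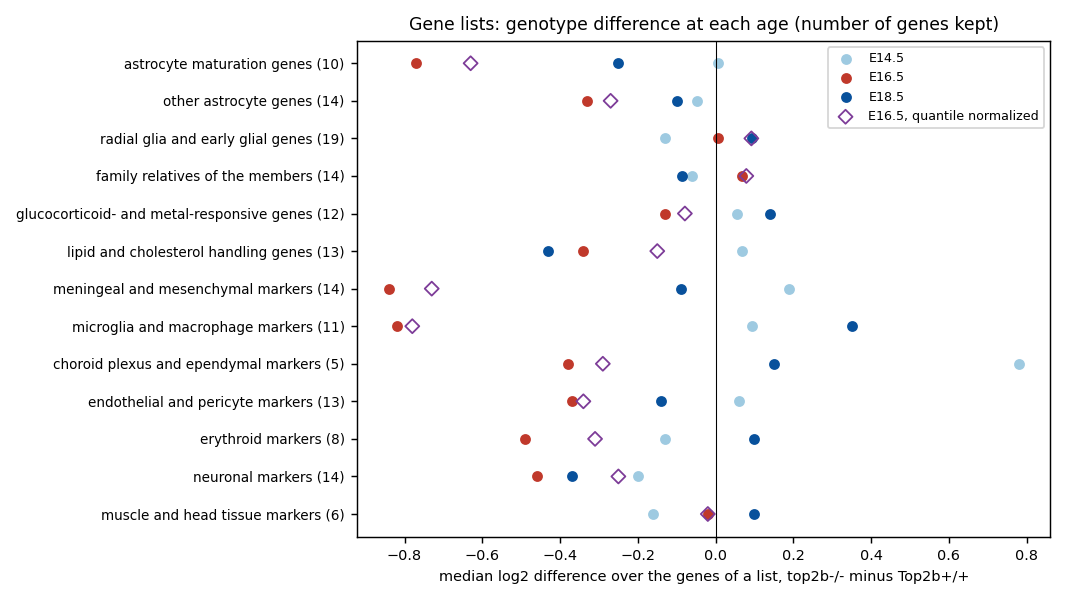
Median log2 difference of top2b-/- minus Top2b+/+ for the 10 astrocyte genes and for each gene list with at least 5 tested genes, 1 probe set per gene, for the 3 ages after scaling and at E16.5 after quantile normalization (open diamonds). The astrocyte genes at -0.77, the meningeal list at -0.84 and the microglia list at -0.82 lie lowest at E16.5 after scaling, and the radial glial list lies at 0.0055.

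The pattern of the members was summarised by the mean standardised log2 profile of their brightest probe sets, which was -0.75, 0.69 and 0.75 in Top2b+/+ and -0.75, -0.55 and 0.61 in top2b-/- brains. Over the 6 arrays, the correlation with this profile was 0.983 for Apoe, 0.966 for Aldoc, 0.965 for Ndrg2 and 0.955 for Aqp4 and for Mt3, each of which is part of it. The correlation was lower for Mt1 at 0.882 and Gja1 at 0.546, and -0.608 for Glul on its _r_at probe set. These values measure likeness to the mean profile. It was compared with 6547 other probe sets, all above the noise on both E18.5 arrays, a restriction at the age where the profile is highest in each genotype. The 8 most like it were those of Rnasek, Gng12, Zfp574, an _r_at of Ptgds, Fhl2, Dag1, Atp13a2 and H2-D1, with correlations of 0.986 to 0.991. Dag1, the laminin receptor dystroglycan, read 376, 569.8 and 587 against 397, 438 and 559. This Ptgds probe set lay within the noise on 3 arrays and read 979 and 1848 at E16.5 and E18.5 in Top2b+/+ and 318 at E18.5 in top2b-/- brains. These likenesses share the same 6 arrays and their scaling.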

How the data were processed

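The deposited values were linear intensities, 1 per probe set and array, partly below 0. The labels name the Rosetta Resolver system, and the sources used here do not state how the authors summarised probes or scaled arrays. Control probe sets (66) were left out, each array was scaled to the mean of the 6 medians, values were floored at the pooled 20th percentile (2.39) and put on the log2 scale, and probe sets under the 40th percentile of the mean (37.0) were left out. Because of the floor, single readings near 0 can give large log2 differences, so folds that touch readings within the noise are given as "at least", with those readings raised to the noise limit. Symbols are those of the platform annotation, brought up to date through RefSeq's Entrez IDs (10817 probe sets matched). For a gene in a list, the probe set with the highest mean was used.

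Models were fitted in limma 3.58.1, run under R 4.3.3 (lmFit, eBayes with intensity trend, Benjamini-Hochberg over all 7453 probe sets). Age and genotype came from 1 additive model over the 6 arrays with 2 residual degrees of freedom. The E16.5 departure and the genotype by day slope each had their own model. The code was tested on simulated data. Figures and descriptions used Python 3.11.15. Alternatives were no scaling, quantile normalization, readings raised to the noise limit, no filter and a stricter filter (60th percentile), no intensity trend, and leaving out arrays or pairs. The number of arrays limits the precision.

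The genes and lists were chosen with earlier results of these data known. Named were all probe sets of the 10 genes, Top2b, Xist and Eif2s3y. The 8 single-symbol probe sets most correlated with the mean profile were also named, among those above the noise on both E18.5 arrays. From most lists the genes that passed a test were named, and some, not all, of those with large differences above the noise. Gfap, Slc1a2 and S100b were named as defining markers, outside that rule. Cx3cr1 and Csf1r were named as markers going the other way from their list's median, also outside it. So were Vim, Apoc2, Sox10 and Mbp, set beside genes of their lists with wide E16.5 gaps.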

Additional observations from a re-analysis of the deposited data

How the results depend on the processing

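The age call of 4 astrocyte gene probe sets became 8 without scaling, 0 with no filter and 0 without the intensity trend, and 0 to 1 when an array or the E16.5 pair was left out. It was 5 with quantile normalization and 3 with raised low readings or the stricter filter. The adjusted p (limma) of the 4 ranged over the alternatives from 4.12e-27 to 0.244 for Apoe, 1.7e-11 to 0.216 for Aqp4, 5.03e-12 to 0.13 for Mt1 and 5.86e-06 to 0.228 for Clu, and their log2 changes stayed above 0 in all of them. Over all tested probe sets the 111 age calls became 354 without scaling, 266 with quantile normalization, 174 with raised low readings, 4 with no filter, 225 with the stricter filter, 0 without the trend and 3 to 17 when arrays were left out. The 3 genotype calls became 110, 0, 8 and 0 under the first 4 of these, 0 without the trend, and 0 to 14 when arrays were left out. The 0 calls of the E16.5 departure became 10 without scaling and 140 with no filter, none of them an astrocyte gene probe set, and the 0 of the slope became 27 without scaling. The departure could not be fitted with an array or a pair left out.

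Without scaling, the median departure over all probe sets moved to 0.47 and the median genotype difference to 0.19. The departure then changed sign for Mt1 (0.29), Mt3 (0.024), Clu _at (0.049), Aldoc (0.19), Gja1 _r_at (0.25), the dimmer Ndrg2 probe set (0.50) and Glul (0.11 and 0.38), and with quantile normalization for the dimmer Ndrg2 probe set alone (0.014). The genotype difference changed sign without scaling for Mt1 (0.10) and Clu (0.0095 and 0.012). With arrays left out it ranged from -0.14 to 0.0050 for Mt1, -0.46 to 0.19 for Clu _f_at, -0.086 to 0.19 for the dimmer Ndrg2 probe set and -0.07 to 0.091 for Glul _at, and the age change of Gja1 _f_at from -0.22 to 0.47. The cause was not tested. The genotype model is itself paired by age. No paired analysis was possible by replicate number because each group has 1 array. Near the noise limit, as for Aqp4 and Clu at E14.5, only bounds can be given.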
